A study of Mus musculus with 8 samples.

Results

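The mouse genes named Zfp600 to Zfp999 are part of the large set of zinc finger protein genes, most of which encode DNA-binding proteins with arrays of C2H2 fingers. They were picked by name from the expression tables of E15.5 germ cells: any name of that form, with a gene listed at several loci represented by the locus of highest mean. The tables held 141 such genes among 24631 gene names, of which all 141 were in the female table and 138 in the male table, where Zfp626, Zfp638 and Zfp950 were not listed. They lay on 20 chromosomes, with 33 on chromosome 7, 19 on chromosome 17 and 16 on chromosome 8.

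Many proteins of this kind carry a KRAB domain ahead of the fingers. The fingers choose the DNA sequence, and the KRAB domain recruits TRIM28 (KAP1), which brings the H3K9 methyltransferase SETDB1 and HP1 proteins and so makes silent chromatin, often at endogenous retroviruses. KRAB zinc finger genes multiply by tandem duplication and therefore sit in chromosomal clusters of related copies, while members without KRAB are older genes with diverse roles in transcription, ribosome assembly or chromatin. In fetal germ cells, where DNA methylation has been erased, H3K9 methylation is known to hold down retroviral elements.

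The study asked what the SWI/SNF chromatin remodeling complex does when germ cells take their female or male course. RNA-Seq profiled germ cells sorted for the Oct4-EGFP transgene, a green reporter driven by the Oct4 promoter, from E15.5 ovaries and testes, with 4 groups of 2 libraries: control and Snf5 CKO in either sex. Snf5 CKO embryos carried Snf5fx/Δ with TNAP-Cre, a Cre recombinase under the Alpl promoter that acts in primordial germ cells and does not recombine every cell. The controls pooled 3 genotypes (Snf5fx/Δ, Snf5fx/+, and Snf5fx/+ carrying TNAP-Cre), so Cre and a Δ allele were present in a part of the controls too. The labels give the strain as C57BL/6, the methods a mixed background with 129/Sv and ICR, and all 4 groups carried the reporter. Libraries are described as biological duplicates. By the supplement of the study, those of females and of male controls each pooled more than 1 mouse, while every entry for male Snf5 CKO is a single mouse, so the male groups differ in the number of animals pooled.

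The deleted gene, Smarcb1 (Snf5), was at 23.4 and 22.3 FPKM in control libraries against 4.24 and 2.47 FPKM in those of Snf5 CKO of females. In males it was at 141 and 167 FPKM in control libraries against 8.73 and 10.1 FPKM in those of Snf5 CKO. The remaining signal is a mean over cells, and fewer cells expressing a gene and less RNA in each cell cannot be told apart in sorted bulk RNA. All 8 germ cell markers were detected, with summed levels of 3324 to 3510 FPKM in female controls, 3087 to 3335 in female Snf5 CKO, 5204 to 5634 in male controls and 4491 to 5081 in male Snf5 CKO libraries. Of these 8, 3 were called higher and 3 lower in females, and 4 lower and none higher in males. The summed level of 8 markers of supporting cells was 6.79 to 10.1 FPKM in female controls and 24.6 to 26.04 in female Snf5 CKO, with 2 of 6 tested markers higher. In males it was 30.7 to 36.2 FPKM in controls and 141 to 189 in Snf5 CKO, with 6 of 7 tested markers higher. The sum of 5 steroidogenic markers went the other way in males, 58.2 to 85.7 FPKM in controls and 15.1 to 19.2 in Snf5 CKO. The sum was 4.74 to 4.89 FPKM in female controls and 11.8 to 12.01 in female Snf5 CKO. Sums of 4 stromal markers ran from 0.774 to 5.26 FPKM over the female and from 1.27 to 10.5 FPKM over the male libraries, highest in controls, and 5 blood and endothelial markers from 13.1 to 48.5 and from 27.4 to 40.7 FPKM. No marker of these lists was at 0 in all libraries of a sex, and the part of these cells in the results below was not tested.

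The promoter sequences of 6 members are shown because the results turn on them: Zfp871, Zfp799 and Zfp763 are neighbours on chromosome 17 that were higher together in female Snf5 CKO germ cells, and Zfp672, Zfp800 and Zfp825 changed in opposite directions in the sexes. Each is the 300 bases from 250 before to 50 after the annotated start, taken from RefSeq (GRCm38.p6), with the start nearest the 5′ end of the measured locus where RefSeq lists several, and printed 5′ to 3′ on the strand of the gene. Capitals mark matches on either strand to 4 letter strings: the E-box CACGTG, the GC box GGGCGG, the CCAAT box CCAAT and the TATA box TATAAA. These strings do not overlap in the 6 windows. The windows are chr17:32788238-32788537, minus strand for Zfp871, chr17:32830212-32830511, minus strand for Zfp799 and chr17:33033332-33033631, minus strand for Zfp763. They are chr11:58330290-58330589, minus strand for Zfp672, chr6:28261875-28262174, minus strand for Zfp800 and chr13:74493912-74494211, minus strand for Zfp825.
Zfp871: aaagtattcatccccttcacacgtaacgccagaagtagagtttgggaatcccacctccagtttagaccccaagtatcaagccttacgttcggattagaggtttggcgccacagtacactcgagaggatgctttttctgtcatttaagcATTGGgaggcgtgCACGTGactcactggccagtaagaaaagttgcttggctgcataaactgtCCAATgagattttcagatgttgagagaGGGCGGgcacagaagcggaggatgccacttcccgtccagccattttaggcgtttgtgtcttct
Zfp799: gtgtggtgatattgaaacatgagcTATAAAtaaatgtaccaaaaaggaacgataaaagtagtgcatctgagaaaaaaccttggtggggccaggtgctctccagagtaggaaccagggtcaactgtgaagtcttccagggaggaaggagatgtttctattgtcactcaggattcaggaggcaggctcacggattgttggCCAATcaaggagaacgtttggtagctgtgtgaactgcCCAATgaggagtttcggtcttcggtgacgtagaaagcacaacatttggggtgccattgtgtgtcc
Zfp763: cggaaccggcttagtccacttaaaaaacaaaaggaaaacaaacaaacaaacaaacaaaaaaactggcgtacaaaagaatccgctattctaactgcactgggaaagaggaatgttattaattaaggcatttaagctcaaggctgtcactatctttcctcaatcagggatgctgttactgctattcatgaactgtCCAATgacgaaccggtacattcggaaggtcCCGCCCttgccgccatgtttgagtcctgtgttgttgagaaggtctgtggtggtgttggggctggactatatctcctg
Zfp672: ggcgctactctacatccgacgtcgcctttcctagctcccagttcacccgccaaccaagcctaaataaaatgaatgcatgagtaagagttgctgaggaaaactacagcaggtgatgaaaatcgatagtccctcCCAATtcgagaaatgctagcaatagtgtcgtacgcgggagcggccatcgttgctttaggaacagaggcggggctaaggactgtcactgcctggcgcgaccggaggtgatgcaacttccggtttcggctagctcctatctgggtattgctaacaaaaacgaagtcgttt
Zfp800: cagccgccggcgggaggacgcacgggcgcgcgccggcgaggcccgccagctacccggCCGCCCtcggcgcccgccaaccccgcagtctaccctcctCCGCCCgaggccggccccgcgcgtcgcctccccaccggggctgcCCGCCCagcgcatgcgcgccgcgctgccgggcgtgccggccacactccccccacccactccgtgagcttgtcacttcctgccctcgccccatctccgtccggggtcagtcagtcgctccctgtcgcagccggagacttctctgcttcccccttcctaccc
Zfp825: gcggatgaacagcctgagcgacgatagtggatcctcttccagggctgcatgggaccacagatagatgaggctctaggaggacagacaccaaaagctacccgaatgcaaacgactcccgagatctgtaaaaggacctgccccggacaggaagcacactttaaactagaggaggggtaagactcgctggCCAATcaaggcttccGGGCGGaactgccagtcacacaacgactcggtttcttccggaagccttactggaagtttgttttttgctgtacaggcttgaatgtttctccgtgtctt

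The windows of the 3 chromosome 17 neighbours each hold at least 1 CCAAT box, and those of Zfp871 and Zfp763 also a GC box. The Zfp800 window holds a GC box and no CCAAT box, while that of Zfp672 holds a CCAAT box and no GC box. RefSeq lists 2 further starts of Zfp672 inside its measured locus, both with a GC box in the window, and 1 further start each of Zfp871 and Zfp800. The further start of Zfp800 is that of GENCODE and lies beyond the measured locus, which ends at 28263759 in females and 28263729 in males. RefSeq promoters were matched for 121 of the 141 genes, as 149 windows. A CCAAT box was in 53.7% of these windows against 37.4% of all 32851 promoters, a GC box in 43.6% against 35.7%, an E-box in 10.1% against 7.15% and a TATA box in 6.04% against 13.6%. The median number of CpG dinucleotides was 13 per member window and 7 over all promoters. These are descriptions of the letters in the windows and not of factor binding.

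The zinc finger genes were expressed at modest levels in all groups. FPKM scales fragments by transcript length and library size, so levels can be compared between genes of a library. The median over the listed genes was 4.46 FPKM in female and 5.54 FPKM in male controls, and 4.35 and 4.64 FPKM in female and male Snf5 CKO germ cells. In female controls 100 of 141 and in male controls 99 of 138 genes were under 10 FPKM. Genes listed at 0 in all libraries were Zfp616, Zfp735 and Zfp957 in females, and Zfp616 and Zfp735 in males. Over the genes that passed a filter of a mean of at least 1 FPKM, 122 in females and 123 in males, the median control level was 6.24 and 6.49 FPKM, against 14.03 and 11.98 FPKM for all tested loci.

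Each sex was tested alone, because the 2 tables were made separately. A gene was called at a Benjamini-Hochberg adjusted p under 0.05 over all tested loci, from limma on log2(FPKM + 1), and a log2 fold change of 1 or more in size. In female Snf5 CKO germ cells, 19 of the 122 genes (15.6%) were lower and 11 (9.02%) higher, while 21.6% of all 11520 tested loci were called lower and 17.3% higher. In males, 19 of the 123 genes (15.4%) were lower and 5 (4.07%) higher, while 17.5% of all 12269 tested loci were called lower and 14.4% higher. The shares of the zinc finger genes stood below these in each direction, which is a description with no test. With a pseudocount of 0.1 in place of 1, 29 female genes (23.8%) were lower and 16 (13.1%) higher, beside 24.2% and 20.1% of all loci. With a mean of at least 5 FPKM, 16 of 68 female genes (23.5%) were lower and 4 (5.88%) higher, beside 22.8% and 16.8%. The share of lower genes also stood above that of all loci without the filter, at 13.8% against 13.7% in females and 19 of 136 genes against 11.7% in males, and on linear FPKM in males, at 14.6% against 13.4%. The median log2 fold change was -0.34 over the female genes and -0.13 over all female loci, and -0.09 and -0.07 in males. These medians move with the scaling of the libraries: after median-of-ratios rescaling they were -0.20 against 0.02 in females, and 0.03 against 0.07 in males. A log2 fold change (log2FC) given here is one of FPKM + 1, and so is smaller than that of FPKM itself where levels are near 1 FPKM; its error is the standard error (SE) of the fit.

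**Figure D1:**
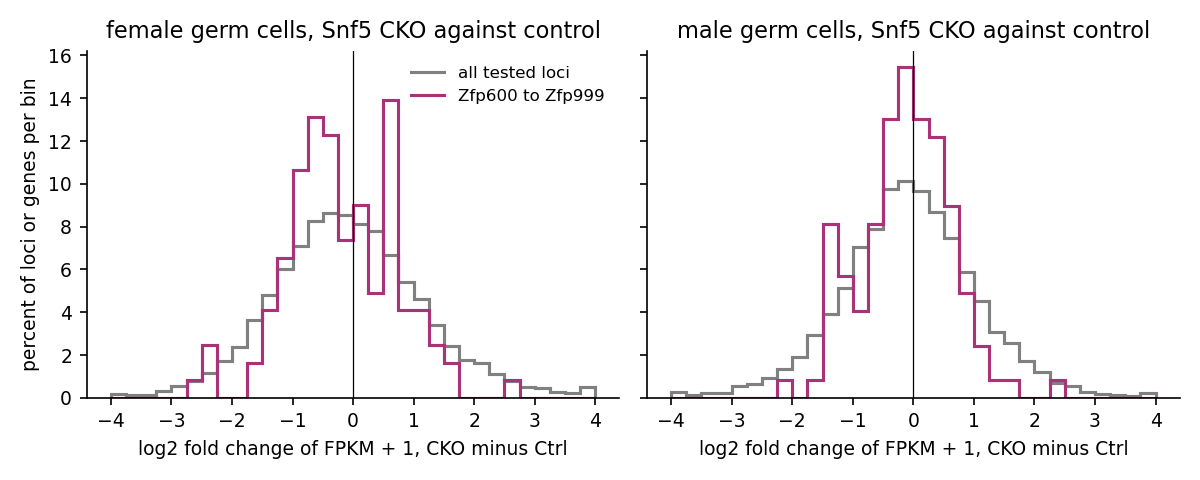
Share of loci (y axis, percent per bin) by log2 fold change of FPKM + 1 in Snf5 CKO against control (x axis, bins of 0.25, values beyond 4 placed in the outermost bins), in females on the left and males on the right. The zinc finger genes (coloured) reach from -2.66 to 2.52 in females and from -2.07 to 2.33 in males and all tested loci (grey) spread further to both sides.

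Both Snf5 CKO libraries were below both controls for 66 of the 122 female genes (54.1%), against 45.1% of all loci. Both were above for 41 (33.6%), against 36.4%, and the groups overlapped for the other 15. In males the CKO libraries were below both controls for 53 of 123 genes (43.1%), against 40.0% of all loci, and above for 38 (30.9%), against 34.6%. At 2 libraries a group, no exact permutation of 1 gene's values (two-sided) can reach a p below 0.333, so the calls rest on the spread shared across loci.

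In female Snf5 CKO germ cells the largest falls were in Zfp711, Zfp653, Zfp672 and Zfp850. Their group means were 5.21 to 8.28 times lower. Zfp711, an X-linked relative of the transcription activator Zfx (chrX:112600526-112635070 in GENCODE), was at 24.4 and 19.8 FPKM in control libraries against 3.21 and 2.13 FPKM in those of Snf5 CKO (log2FC -2.66 ± 0.23 (SE), adjusted p = 0.000181). Zfp653 (chr9:22055411-22071376) fell from 37.9 and 28.4 FPKM in controls to 5.44 and 5.32 FPKM (log2FC -2.41 ± 0.20 (SE), adjusted p = 0.000177). It shares exonic bases on its own strand with the readthrough gene Gm49318, and its neighbour Ecsit fell from 169 and 167 FPKM in controls to 32.9 and 38.1 FPKM (log2FC -2.21 ± 0.17, adjusted p = 0.000145). Zfp850, a KRAB member with 16 fingers by its reading frame (chr7:27984854-28014115), fell from 25.8 and 37.005 FPKM in controls to 5.13 and 6.31 FPKM (log2FC -2.25 ± 0.23 (SE), adjusted p = 0.000319). In these 3 genes both control libraries stood several times above the higher Snf5 CKO library, though a lack of overlap follows from the rule by which genes were named.

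Zfp672 was the most abundant of all the zinc finger genes in female controls. It encodes 14 fingers with no KRAB match (chr11:58315114-58330339), and it was at 222 and 253 FPKM in control libraries against 35.1 and 56.2 FPKM in those of Snf5 CKO (log2FC -2.39 ± 0.25 (SE), adjusted p = 0.00036). Its neighbour Zfp692, a zinc finger transcription factor first described as a regulator of gluconeogenic genes (chr11:58307069-58314627), ends 486 bases from it on the opposite strand. Zfp692 was at 32.6 and 28.6 FPKM in control libraries against 20.05 and 17.1 FPKM in those of Snf5 CKO, with log2FC -0.69 ± 0.18, adjusted p = 0.0138, a size that misses the threshold. The authors' library kit does not mark strand, so reads over the 126 exonic bases that Zfp672 shares with the antisense transcript 1700047K16Rik cannot be assigned to either.

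The next 6 female falls were of 2.55 to 3.65 times by the means. Zfp758 fell from 19.4 and 11.7 FPKM in controls to 4.09 and 4.43 FPKM (log2FC -1.62 ± 0.26, adjusted p = 0.00183). Zfp617 fell from 42.2 and 38.997 FPKM in controls to 13.1 and 14.2 FPKM (log2FC -1.51 ± 0.17, adjusted p = 0.000438); it shares 104 exonic bases with its neighbour Zfp882. Zfp943 fell from 17.8 and 17.8 FPKM in controls to 6.04 and 6.43 FPKM (log2FC -1.38 ± 0.17, adjusted p = 0.00072). All 3 have a KRAB match and hold 11 to 14 fingers. The KRAB gene Zfp786 fell from 10.1 and 10.1 FPKM in controls to 3.21 and 3.57 FPKM (log2FC -1.34 ± 0.18, adjusted p = 0.00101). Zfp654 fell from 39.002 and 30.5 FPKM in controls to 14.6 and 12.6 FPKM (log2FC -1.28 ± 0.19, adjusted p = 0.00149), and Zfp800 fell from 21.7 and 20.6 FPKM in controls to 8.39 and 8.11 FPKM (log2FC -1.26 ± 0.17, adjusted p = 0.000952). That no Snf5 CKO library reached a control in these 6 follows from the rule by which genes were named. The other genes called lower were Zfp788, Zfp949, Zfp664, Zfp942, Zfp687, Zfp715, Zfp612, Zfp628 and Zfp964, with log2 fold changes from -1.25 to -1.001; Zfp628 shares its locus with Nat14.

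Of the 11 female rises, that of Zfp710 was the largest. Zfp710, with 11 fingers and no KRAB match (chr7:80024814-80094173), was at 4.63 and 5.35 FPKM in control libraries against 34.8 and 31.7 FPKM in those of Snf5 CKO (log2FC 2.52 ± 0.18 (SE), adjusted p = 0.00012), 6.66 times higher by the means. Zfp750, a regulator of epidermal differentiation, was near 0 in controls, and it passed the filter only through its Snf5 CKO libraries: its values were 0.147 and 0.0543 FPKM in controls against 3.03 and 1.74 FPKM in Snf5 CKO (log2FC 1.596 ± 0.24, adjusted p = 0.00139). Next came Zfp799 and Zfp763, which are described with their chromosomal neighbours below. Zfp936 rose from 3.06 and 3.96 FPKM in controls to 9.89 and 11.95 FPKM (log2FC 1.404 ± 0.21, adjusted p = 0.00136). Zfp688 rose from 4.38 and 5.19 FPKM in controls to 13.1 and 14.99 FPKM (log2FC 1.38 ± 0.19, adjusted p = 0.00105). Both have a KRAB match, and the lack of overlap between their groups follows from the rule by which genes were named. Zfp825 rose from 3.51 and 5.25 FPKM in controls to 8.21 and 15.1 FPKM (log2FC 1.196 ± 0.31, adjusted p = 0.0139), with a wide gap between its Snf5 CKO libraries. Zfp651 rose from 0.833 and 0.407 FPKM in controls to 2.71 and 2.35 FPKM (log2FC 1.13 ± 0.21, adjusted p = 0.0036), and with a control mean under 1 FPKM it too passed the filter only through Snf5 CKO. Zfp772 rose from 1.51 and 1.68 FPKM in controls to 5.14 and 3.73 FPKM (log2FC 1.05 ± 0.21, adjusted p = 0.00479). The size of the Zfp651 rise was 0.94 without female control replicate 2, and that of Zfp772 was 0.87 without female Snf5 CKO replicate 1, each just under the threshold of 1.

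In male Snf5 CKO germ cells the largest falls were in Zfp850, Zfp707 and Zfp949. Of the 19 genes called lower, 1 (Zfp607) had no coding transcript to read and 14 of the other 18 (77.8%) had a KRAB match, beside 78 of 120 tested genes (65.0%), with no test between them. Zfp850 was at 19.1 and 18.03 FPKM in control libraries against 4.35 and 3.06 FPKM in those of Snf5 CKO (log2FC -2.07 ± 0.22 (SE), adjusted p = 0.00295). Zfp707 (chr15:75969123-75975868) fell from 19.95 and 20.9 FPKM in controls to 5.04 and 6.63 FPKM (log2FC -1.66 ± 0.20 (SE), adjusted p = 0.00398). Zfp949 (chr9:88548020-88571061) fell from 8.401 and 7.55 FPKM in controls to 2.25 and 2.104 FPKM (log2FC -1.497 ± 0.18 (SE), adjusted p = 0.00401). All 3 have a KRAB match, and their means were 3.50 to 5.02 times lower. The lack of overlap between their groups follows from the rule by which genes were named.

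The next 6 male falls had control means from 3.09 to 12.1 FPKM. Zfp943 fell from 8.63 and 15.5 FPKM in controls to 3.16 and 4.09 FPKM (log2FC -1.45 ± 0.32, adjusted p = 0.018), and the adjusted p was 0.0503 without male control replicate 2 and 0.0951 on linear FPKM. Zfp964 fell from 6.61 and 5.34 FPKM in controls to 1.34 and 1.93 FPKM (log2FC -1.41 ± 0.22, adjusted p = 0.00715). Zfp600 fell from 3.74 and 2.43 FPKM in controls to 0.742 and 0.336 FPKM (log2FC -1.403 ± 0.25, adjusted p = 0.0102). Zfp618, which is known to bind UHRF2 and help it recognize 5-hydroxymethylcytosine, fell from 6.87 and 5.53 FPKM in controls to 1.69 and 1.803 FPKM (log2FC -1.38 ± 0.20, adjusted p = 0.00563). In females Zfp600 was at 0.518 and 0.663 FPKM in controls against 1.93 and 0.845 FPKM in Snf5 CKO, and Zfp618 at 0.894 and 0.583 FPKM in controls against 0.873 and 0.713 FPKM in Snf5 CKO, both under the filter. Zfp931 fell from 4.204 and 4.79 FPKM in controls to 1.04 and 1.17 FPKM (log2FC -1.38 ± 0.18, adjusted p = 0.00448), and Zfp677 fell from 8.46 and 10.4 FPKM in controls to 3.54 and 2.8002 FPKM (log2FC -1.32 ± 0.21, adjusted p = 0.00785). Apart from Zfp618 these have a KRAB match. Zfp600, Zfp607 and Zfp711 had means under 1 FPKM in male Snf5 CKO and passed the filter only through the controls. The remaining genes called lower in males, beside Zfp825, were Zfp609, Zfp948, Zfp867, Zfp773, Zfp711, Zfp775, Zfp607, Zfp820 and Zfp951, with log2 fold changes from -1.28 to -1.05.

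Only 5 of the genes tested in males were called higher, and 1 of them has a KRAB match. Zfp809, which is known to recognize the primer binding site of murine leukemia virus type retroviruses and to recruit TRIM28 to them (chr9:22225714-22243354), was at 1.604 and 1.34 FPKM in control libraries against 11.998 and 10.9 FPKM in those of Snf5 CKO (log2FC 2.33 ± 0.19 (SE), adjusted p = 0.00221), 7.77 times higher by the means. Zfp746, the Parkin substrate PARIS (chr6:48062395-48086593), was at 7.86 and 10.2 FPKM in control libraries against 28.7 and 26.7 FPKM in those of Snf5 CKO (log2FC 1.53 ± 0.20 (SE), adjusted p = 0.00458). Its values in females were 63.4 and 65.2 FPKM in controls against 42.3 and 43.1 FPKM in Snf5 CKO (log2FC -0.58 ± 0.16, adjusted p = 0.0177), which misses the size threshold. Zfp672 rose from 2.37 and 7.003 FPKM in controls to 11.4 and 15.7 FPKM (log2FC 1.47 ± 0.45, adjusted p = 0.0486), Zfp750 from 2.801 and 2.096 FPKM in controls to 8.51 and 5.903 FPKM (log2FC 1.24 ± 0.25, adjusted p = 0.0142) and Zfp800 from 2.87 and 3.24 FPKM in controls to 8.59 and 6.43 FPKM (log2FC 1.06 ± 0.22, adjusted p = 0.015). The count of 5 was 3 without male control replicate 1. The rise of Zfp672 was 0.84 (adjusted p = 0.119) without male control replicate 1 and 1.25 (0.079) without male Snf5 CKO replicate 2. With all libraries kept, the adjusted p of Zfp672 was 0.0543 with a pseudocount of 0.1, 0.079 without the filter, 0.0564 with a mean of at least 5 FPKM, 0.0501 by eBayes without trend and 0.0819 on linear FPKM, so its male call is at the edge of the threshold. That of Zfp800 was 0.99 (adjusted p = 0.0719) without male control replicate 1 and 0.88 (0.0548) without male Snf5 CKO replicate 1, and 0.95 (0.12) after rescaling to a common sum. The adjusted p of Zfp750 was 0.0585 without male control replicate 2, 0.0601 after rescaling to a common sum and 0.0513 on linear FPKM.

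Of the 118 genes tested in both sexes, 9 (7.63%) were called in both, beside 13.7% of the 11088 gene names tested in both. They comprised 5 lower in both (4.24%, beside 5.19%), Zfp750 as the 1 higher in both (0.847%, beside 6.48%) and 3 in opposite directions (2.54%, beside 2.06%). The genes lower in both were Zfp711, Zfp850, Zfp943, Zfp949 and Zfp964, 4 of them KRAB members. Zfp949 was at 5.33 and 5.1004 FPKM in controls against 1.75 and 1.56 FPKM in Snf5 CKO in females (log2FC -1.23 ± 0.19, adjusted p = 0.00148). Zfp964 was at 6.25 and 6.34 FPKM in controls against 2.74 and 2.56 FPKM in Snf5 CKO in females (log2FC -1.001 ± 0.18, adjusted p = 0.00331), with sizes of -0.99 without female control replicate 2 and -0.96 without female Snf5 CKO replicate 2, and -0.87 after median-of-ratios rescaling. Zfp711 is at lower values in the male table, which was normalized separately: in males it was at 1.91 and 2.06 FPKM in controls against 0.494 and 0.159 FPKM in Snf5 CKO (log2FC -1.18 ± 0.19, adjusted p = 0.00837), and the size was -0.997 without male Snf5 CKO replicate 2. 

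**Figure D2:**
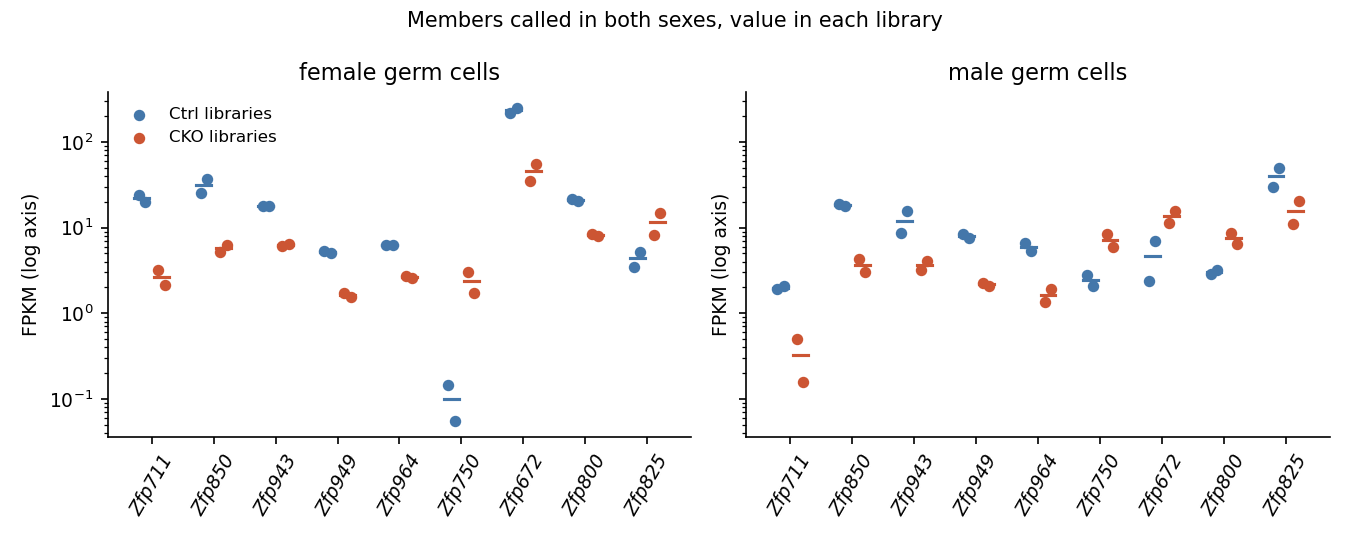
FPKM (y axis, log scale) of the 9 genes called in both sexes in each library (points) with group means (bars), controls in blue and Snf5 CKO in orange, females on the left and males on the right. The 5 genes from Zfp711 to Zfp964 are lower in Snf5 CKO in both panels, Zfp750 is higher in both, and Zfp672, Zfp800 and Zfp825 change direction between the panels.

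Zfp672, Zfp800 and Zfp825 were called in opposite directions. Zfp672 was at a mean of 238 FPKM in female controls and 45.6 FPKM in female Snf5 CKO, and at 4.69 FPKM in male controls and 13.5 FPKM in male Snf5 CKO. Zfp800 (chr6:28239927-28398005 in GENCODE), which has 7 fingers and no KRAB match, had means of 21.2 and 8.25 FPKM in female control and Snf5 CKO, and 3.05 and 7.51 FPKM in the male groups. Zfp825, a KRAB member with 6 fingers (chr13:74480054-74493992), had means of 4.38 and 11.6 FPKM in females, and of 39.98 and 15.8 FPKM in males. The interval listed for Zfp825 differs between the sexes, from 74478273 to 74617696 in females and from 74478417 to 74493950 in males. For all 3 the means of the Snf5 CKO groups of the sexes lay closer together than those of the controls, as levels set across 2 tables that were normalized separately and not tested. The 3 were picked by their opposite calls, which rest on the same values. The Zfp825 fall in males was from 29.9 and 50.1 FPKM in controls to 11.1 and 20.4 FPKM (log2FC -1.302 ± 0.38, adjusted p = 0.0413). It was -0.94 (adjusted p = 0.129) without male control replicate 2 and -0.89 (0.0887) without male Snf5 CKO replicate 1. With all libraries kept, its adjusted p was 0.0654 without the filter, 0.0587 after median-of-ratios rescaling and 0.116 on linear FPKM. So each of the 3 male calls was lost under at least 1 other processing of the same libraries. The female rise of Zfp825 was 0.96 without female control replicate 1 and 0.80 (adjusted p = 0.0591) without female Snf5 CKO replicate 2, and its adjusted p was 0.0836 on linear FPKM.

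**Figure D3:**
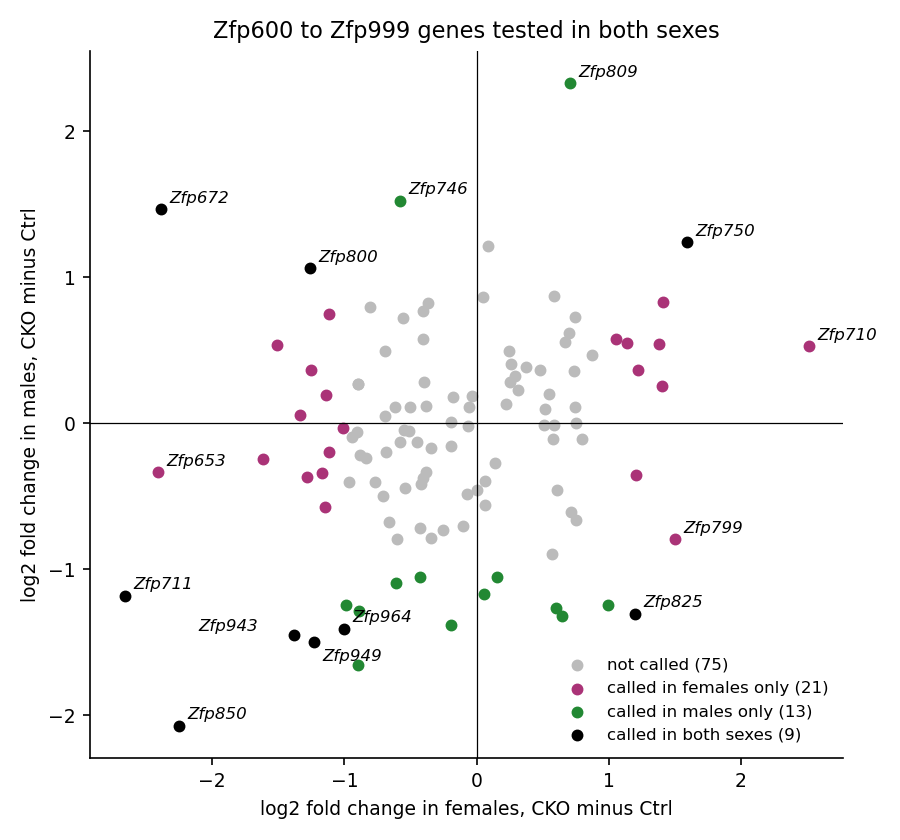
Log2 fold change of FPKM + 1 in Snf5 CKO against control in females (x axis) and in males (y axis) for the 118 zinc finger genes tested in both sexes, coloured by the sex in which a gene was called. The 9 genes called in both sexes (black) lie in all 4 corners, and 75 genes (grey) were called in neither.

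Across the 118 genes the female and male log2 fold changes had a Pearson r of 0.22 and a Spearman rho of 0.22, and 73 (61.9%) had the same sign. Across the 11088 gene names tested in both sexes these were 0.38, 0.35 and 61.2%. These are descriptions across genes, which are not independent replicates. The libraries of the Snf5 CKO groups were above both controls in both sexes for 19 of the 118 genes (16.1%), below in both sexes for 31 (26.3%), and on opposite sides for 28 (23.7%). Over all 11088 gene names these shares were 19.4%, 21.2% and 20.7%. Zfp783 and Zfp956 share 1 locus and are counted separately among the 28, which come from 27 loci.

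The chromosomal runs were defined by position alone, as at least 4 of the genes with no more than 1 Mb between the starts of neighbours. There were 10 runs with 62 genes, of which 51 had a KRAB match, against 36 of the 79 genes outside runs. The table gives for a gene the interval of its whole transcript bundle, so neighbouring genes can share an interval. In females 7 of the 59 tested genes in runs were called higher and 8 lower, against 4 and 11 of 63 outside. In males 2 of 59 were higher and 7 lower in runs, against 3 and 12 of 64 outside. Over all tested loci 17.3% were higher and 21.6% lower in females, and 14.4% and 17.5% in males. No test was made between genes in and outside runs.

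**Figure D4:**
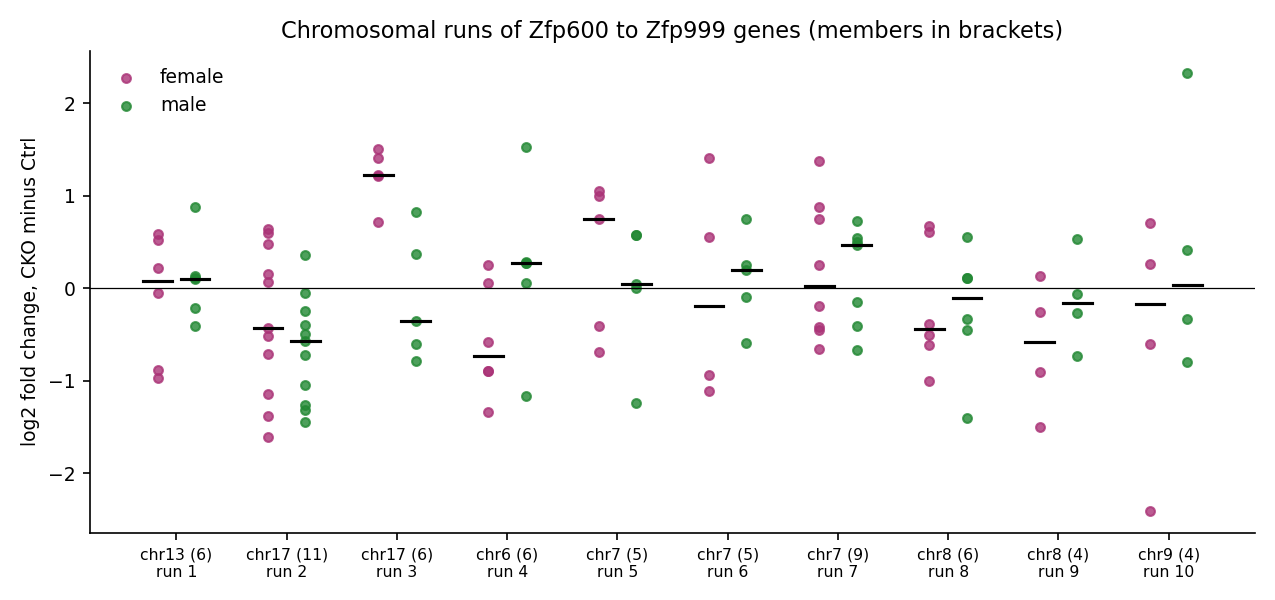
Log2 fold change of FPKM + 1 in Snf5 CKO against control (y axis) for each tested gene (points) of the 10 chromosomal runs (x axis, with the chromosome and the number of genes), females left and males right in each run, with medians as bars. In run 3 on chromosome 17 all 5 tested female points lie above 0, with a median of 1.22, while the points of the other runs lie on both sides of 0 in females. In run 3, Zfp952 passed the female filter only through Snf5 CKO.

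The run on chromosome 17 from 32765497 to 33033381 (mm10) held 6 KRAB genes, in the order Zfp871, Zfp811, Zfp799, Zfp870, Zfp952 and Zfp763. In females both Snf5 CKO libraries were above both controls for all 6, including the untested Zfp811, and 4 of the 5 tested genes were called higher. Over all tested female loci, 36.4% were above both controls and 17.3% were called higher. Zfp799 was at 0.761 and 1.44 FPKM in control libraries against 4.93 and 4.82 FPKM in those of Snf5 CKO (log2FC 1.504 ± 0.22 (SE), adjusted p = 0.00138). Zfp763 rose from 1.26 and 1.57 FPKM in controls to 5.203 and 5.62 FPKM (log2FC 1.41 ± 0.19 (SE), adjusted p = 0.00097). Zfp871 rose from 1.39 and 0.976 FPKM in controls to 4.36 and 3.804 FPKM (log2FC 1.22 ± 0.20 (SE), adjusted p = 0.00215), and Zfp870 rose from 0.978 and 1.58 FPKM in controls to 4.42 and 4.04 FPKM (log2FC 1.21 ± 0.21 (SE), adjusted p = 0.00277). Zfp952 was at 0.6997 and 1.06 FPKM in controls against 2.35 and 1.81 FPKM in Snf5 CKO (log2FC 0.71 ± 0.21, adjusted p = 0.0223), under the size threshold, and Zfp811 at 0.0267 and 0.00706 FPKM in controls against 0.505 and 0.287 FPKM in Snf5 CKO, under the filter. The female controls of all 6 were between 0.00706 and 1.58 FPKM. Zfp952, with a female control mean of 0.881 FPKM, passed the filter only through Snf5 CKO. Other tested loci in the interval were Zfp472 and Cyp4f13, of which 1 was called higher.

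Males gave a mixed picture in the same run. None of the 5 tested genes was called by limma, while 1 higher and 2 lower genes had an unadjusted p under 0.05. Zfp763 was at 1.95 and 2.17 FPKM in controls against 4.204 and 4.68 FPKM in Snf5 CKO (log2FC 0.83 ± 0.18, adjusted p = 0.0182), and Zfp799 at 13.5 and 12.02 FPKM in controls against 6.87 and 7.02 FPKM in Snf5 CKO (log2FC -0.79 ± 0.18, adjusted p = 0.0207). Both Snf5 CKO libraries were above the controls for Zfp871, Zfp811 and Zfp763, and below them for Zfp799, Zfp870 and Zfp952. Male controls of the run had means from 0.661 to 12.8 FPKM, and female controls, in the separately normalized table, from 0.0169 to 1.42 FPKM. Zfp799 shares 482 exonic bases with the antisense gene Gm26693 and Zfp870 438 with CT033772.1, which cannot be told apart here. The interval listed for Zfp799 also differs between the sexes, ending at 32830261 in females and at 32877994 in males. Genes of a run are related copies, so reads that fit several copies could also be divided among them by the authors' quantification.

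**Figure D5:**
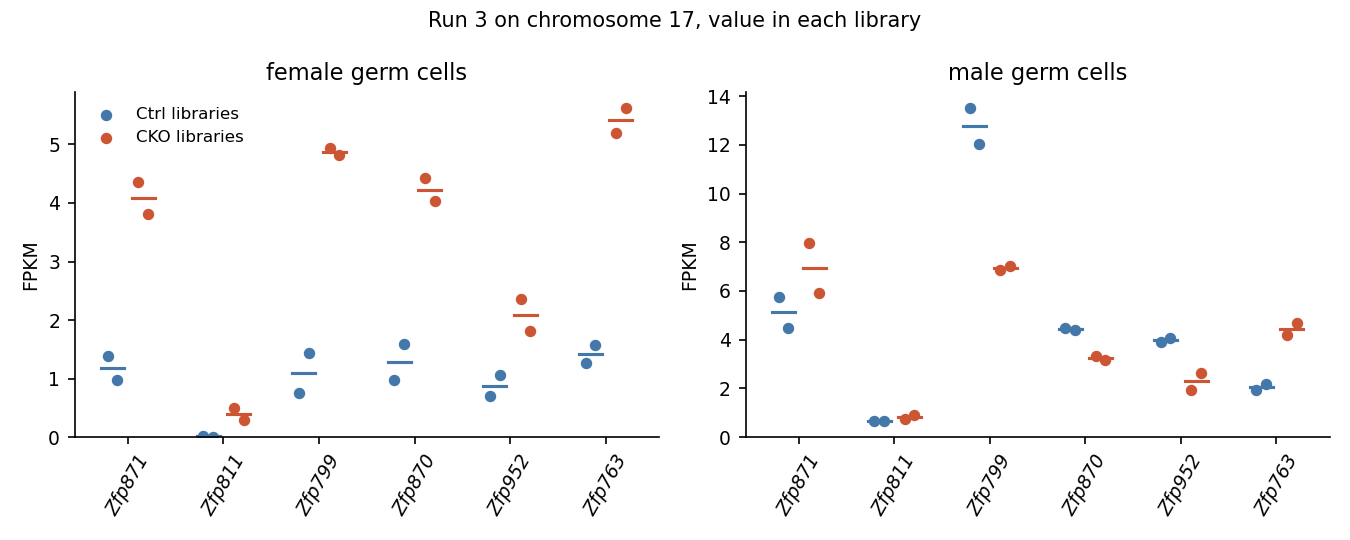
FPKM (y axis, linear, separate scales) in each library (points) with group means (bars) for the 6 genes of the chromosome 17 run from Zfp871 to Zfp763, females on the left and males on the right. The female Snf5 CKO libraries lie above both controls for each gene, while in males Zfp799, Zfp870 and Zfp952 are lower and the other 3 higher in Snf5 CKO.

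The largest run, of 11 KRAB genes on chromosome 17 from 21383704 to 22867185, had a negative median log2 fold change in both sexes. In females 3 were called lower and none higher by limma (4 lower and 3 higher at an unadjusted p under 0.05). Of the 3 higher, Zfp948 (adjusted p = 0.0275) missed the size threshold alone, as did Zfp944 of the 4 lower (log2FC -0.71, adjusted p = 0.0119). The female median was -0.43, with a range from -1.62 (Zfp758) to 0.64 (Zfp677). In males 4 were lower and none higher by limma (6 lower and 0 higher at an unadjusted p under 0.05). Of these 6, Zfp946 (log2FC -0.72, adjusted p = 0.041) missed the size threshold alone. The male median was -0.57, with a range from -1.45 (Zfp943) to 0.36 (Zfp760). Over all tested loci 21.6% were lower and 17.3% higher in females, and 17.5% and 14.4% in males. Zfp943 was lower in both sexes. Zfp677 was lower in males, as given above, and was at 1.97 and 3.34 FPKM in controls against 4.78 and 4.43 FPKM in Snf5 CKO in females (log2FC 0.64 ± 0.24, adjusted p = 0.0509). The locus of Zfp760 in the female table is merged with Zfp229. The 7 other tested loci in the interval had a median of 0.21 in females, with none called by limma (1 higher and 1 lower at an unadjusted p under 0.05), and of -0.87 in males, with 3 lower.

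The run on chromosome 9 holds Zfp653, Zfp809, Zfp810 and Zfp872, which the tables place in 1 interval from 22055460 to 22389206. It contained the widest range of any run in either sex: from -2.41 (Zfp653) to 0.70 (Zfp809) in females, and from -0.79 (Zfp872) to 2.33 (Zfp809) in males. Zfp872 was at 1.52 and 1.79 FPKM in controls against 0.352 and 0.731 FPKM in Snf5 CKO in males (log2FC -0.79 ± 0.20, adjusted p = 0.0261). Its male Snf5 CKO mean was 0.541 FPKM, so it passed the male filter only through the controls. Of the 6 genes in the run on chromosome 6 from 47815463 to 48623227, 2 had a KRAB match. Its female median was -0.74, with Zfp786 lowest (-1.34) and Zfp777 highest (0.25), and its male median was 0.27, from -1.17 (Zfp775) to 1.53 (Zfp746). Zfp783 and Zfp956 of this run share 1 locus, whose value (-0.90 in females and 0.27 in males) enters each median once for each of them. Zfp775 fell in males from 4.37 and 4.15 FPKM in controls to 1.61 and 1.09 FPKM (log2FC -1.17 ± 0.20, adjusted p = 0.00903), and in females it was at 1.78 and 1.67 FPKM in controls against 2.02 and 1.66 FPKM in Snf5 CKO.

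Runs on chromosome 7 differed from each other. In the run from 6131489 to 7209998, the female range was from -0.69 (Zfp667) to 1.05 (Zfp772), and the male range from -1.24 (Zfp773) to 0.58 (Zfp772). Zfp773 fell in males from 8.34 and 5.83 FPKM in controls to 2.38 and 2.36 FPKM (log2FC -1.24 ± 0.23, adjusted p = 0.011). In females Zfp773 was at 0.569 and 0.744 FPKM in controls against 2.77 and 1.88 FPKM in Snf5 CKO, with a log2 fold change of 0.99 that is just under the threshold (adjusted p = 0.00641). Its female control mean was 0.656 FPKM, so it passed the female filter only through Snf5 CKO. In the run from 42967678 to 43618279, the female range was from -1.12 (Zfp715, lower, with -0.96 after median-of-ratios rescaling) to 1.40 (Zfp936, higher). The male range was from -0.60 (Zfp819) to 0.75 (Zfp715), with none of 5 called by limma (1 higher and 1 lower at an unadjusted p under 0.05). In males Zfp715 (adjusted p = 0.0433) and Zfp819 (0.0472) missed the size threshold alone. In the run of 9 genes from 127244526 to 127890970, Zfp646, with 30 fingers, was lowest in both sexes (-0.66 and -0.67) and neither change passed the test. The highest were Zfp688 in females (1.38) and Zfp771 in males (0.73, adjusted p = 0.0351).

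On chromosome 8, the run of 6 KRAB genes from 69194059 to 69774911 had Zfp964 lowest (-1.001 in females and -1.41 in males, both called) and Zfp869 highest (0.67 and 0.55, not called) in both sexes. The run of 4 KRAB genes from 71881029 to 71970333 had a female range from -1.51 (Zfp617) to 0.14 (Zfp882), and a male range from -0.73 (Zfp961) to 0.54 (Zfp617). Zfp617 was at 6.16 and 7.46 FPKM in controls against 9.74 and 10.9 FPKM in Snf5 CKO in males (log2FC 0.54 ± 0.20, adjusted p = 0.0772), above the controls where females were below. No gene of the chromosome 13 run (67038594 to 67683512, 6 KRAB genes) was called in either sex. By limma, 2 higher and 2 lower genes in females and 1 higher in males had an unadjusted p under 0.05. In females Zfp748, Zfp712 and Zfp708 had adjusted p of 0.00585, 0.00556 and 0.0327 and missed the size threshold alone. Zfp708 did so in males too (0.0197). Zfp748 was lowest (-0.97 and -0.40) and Zfp708 highest (0.58 and 0.88) in both.

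Among members that are documented silencers of retroelements, Zfp809 was the only one past both thresholds, and in males only. In females Zfp809 was at 7.89 and 9.14 FPKM in controls against 15.8 and 13.2 FPKM in Snf5 CKO (log2FC 0.70 ± 0.19, adjusted p = 0.0168). The difference between the sexes was not tested. Zfp708, which protects the methylation of RMER19B elements in early embryos, was at 2.38 and 2.77 FPKM in controls against 4.48 and 4.22 FPKM in Snf5 CKO in females (log2FC 0.58 ± 0.19, adjusted p = 0.0327) and 2.49 and 2.903 FPKM in controls against 6.31 and 5.27 FPKM in Snf5 CKO in males (log2FC 0.88 ± 0.20, adjusted p = 0.0197). Both Snf5 CKO libraries lay above both controls in each sex, but its locus is merged with Rslcan18. Zfp932, a repressor of endogenous retroviruses of the ERVK class, was at 5.16 and 6.75 FPKM in controls against 9.73 and 11.3 FPKM in Snf5 CKO in females (log2FC 0.74 ± 0.21, adjusted p = 0.0189) and 9.06 and 14.9 FPKM in controls against 13.3 and 17.3 FPKM in Snf5 CKO in males (log2FC 0.36 ± 0.29, adjusted p = 0.357). Zfp819, described as a repressor of retroviral elements in pluripotent cells, was at 10.8 and 9.74 FPKM in controls against 6.38 and 6.55 FPKM in Snf5 CKO in males (log2FC -0.60 ± 0.18, adjusted p = 0.0472). In females it was at 0.415 and 0.251 FPKM in controls against 1.47 and 0.548 FPKM in Snf5 CKO, under the filter. Zfp638, which works with the HUSH complex on unintegrated retroviral DNA, was at 69.9 and 55.8 FPKM in controls against 41.5 and 26.96 FPKM in Snf5 CKO in females (log2FC -0.88 ± 0.24, adjusted p = 0.0182).

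Of the members with roles in chromatin and transcription described next, Zfp609 was called in males alone and Zfp687 in females alone. Zfp609, a partner of the cohesin loader NIPBL in neural progenitors, fell in males from 17.9 and 15.5 FPKM in controls to 6.64 and 5.86 FPKM (log2FC -1.28 ± 0.19, adjusted p = 0.00625). In females it was at 10.8 and 8.51 FPKM in controls against 5.38 and 4.14 FPKM in Snf5 CKO (log2FC -0.89 ± 0.22, adjusted p = 0.0107), just under the size threshold. Zfp687, which is found in a complex with ZMYND8, fell in females from 56.8 and 45.04 FPKM in controls to 25.4 and 19.9 FPKM (log2FC -1.14 ± 0.20, adjusted p = 0.00299), with sizes of -0.97 without control replicate 1 or Snf5 CKO replicate 2 and -0.98 after median-of-ratios rescaling. Its male values were 16.6 and 11.6 FPKM in controls against 18.9 and 13.7 FPKM in Snf5 CKO (log2FC 0.20 ± 0.26, adjusted p = 0.569). Zfp827, which recruits NuRD to telomeres, was at 1.802 and 1.58 FPKM in controls against 0.63997 and 0.572 FPKM in Snf5 CKO in males (log2FC -0.74 ± 0.16, adjusted p = 0.0181). With a male Snf5 CKO mean of 0.606 FPKM, Zfp827 passed the male filter only through the controls. Zfp706, a small protein that restrains self-renewal of embryonic stem cells, was at 73.7 and 83.4 FPKM in controls against 56.8 and 64.4 FPKM in Snf5 CKO in females (log2FC -0.37 ± 0.18, adjusted p = 0.108) and 28.3 and 36.1 FPKM in controls against 53.2 and 61.7 FPKM in Snf5 CKO in males (log2FC 0.82 ± 0.20, adjusted p = 0.0248). Zfp692, the neighbour of Zfp672, was at 9.12 and 11.6 FPKM in controls against 14.3 and 15.7 FPKM in Snf5 CKO in males (log2FC 0.50 ± 0.20, adjusted p = 0.1). Zfp704, a relative of Zfp703, was at 14.2 and 7.23 FPKM in controls against 39.8 and 15.5 FPKM in Snf5 CKO in males (log2FC 1.21 ± 0.52, adjusted p = 0.117). Blocking on replicate number put the Zfp704 change past the threshold (adjusted p = 0.000554), and its male libraries of number 1 were higher than those of number 2 in both groups.

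Other documented members showed no call by limma in either sex. Zfp644, a partner of the G9a and GLP methyltransferases, had overlapping groups in both sexes, with log2 fold changes of -0.20 (adjusted p = 0.412) and 0.01 (0.986). Zfp652 had 0.31 (0.183) and 0.23 (0.35). Zfp622, a factor of large ribosomal subunit maturation, had -0.55 (0.0253) in females and -0.05 (0.844) in males. Zfp830, which early embryos need to survive, had -0.58 (0.0274) and -0.13 (0.642). Zfp703 stayed under 1 FPKM in every library.

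The most abundant members in controls differed between the tables. In females they were Zfp672 at 238 ± 21.8 FPKM (SD, n = 2), Zfp622 at 87.5 ± 0.0265 FPKM (SD, n = 2), Zfp706 at 78.5 ± 6.83 FPKM (SD, n = 2), Zfp746 at 64.3 ± 1.301 FPKM (SD, n = 2) and Zfp638 at 62.8 ± 9.94 FPKM (SD, n = 2). Zfp672 stood above the second by more than their spread, whereas Zfp746 and Zfp638 differed by less than the SD of Zfp638. In males they were Zfp655 at 43.1 ± 3.32 FPKM (SD, n = 2), Zfp951 at 40.2 ± 1.43 FPKM (SD, n = 2), Zfp825 at 39.98 ± 14.3 FPKM (SD, n = 2), Zfp710 at 39.2 ± 5.12 FPKM (SD, n = 2) and Zfp622 at 35.7 ± 2.396 FPKM (SD, n = 2). These 5 differed from each other by less than the SD of Zfp825. Zfp951 fell in males from 39.2 and 41.2 FPKM in controls to 18.1 and 19.7 FPKM (log2FC -1.05 ± 0.16, adjusted p = 0.00712), and its size was -0.99 without male Snf5 CKO replicate 1 and -0.89 after median-of-ratios rescaling. Zfp655 had log2 fold changes of -0.54 (adjusted p = 0.0252) in females and -0.44 (0.107) in males, and Zfp710 of 0.53 (0.0745) in males.

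Reading frames of GENCODE transcripts were searched for fingers and for a KRAB box. A KRAB match was found for 87 genes, with a median of 12 fingers and at most 33 (Zfp619), and none for 51 genes, with a median of 7 and at most 30 (Zfp646). A match that was not found does not show that the domain is absent. In females, 8 of 77 tested genes with a KRAB match were called higher (10.4%) and 11 lower (14.3%), with a median log2 fold change of 0.06. Of 42 tested genes without a match, 3 were higher (7.14%) and 8 lower (19.0%), with a median of -0.54. Over all female loci 17.3% were higher and 21.6% lower. Both female Snf5 CKO libraries were below both controls for 34 of the 77 (44.2%) and for 30 of the 42 (71.4%), beside 45.1% of all loci. In males the medians were -0.15 with and -0.01 without a match. With a match 1 was higher (1.28%) and 14 lower (17.9%) of 78, and without 4 were higher and 4 lower of 42 (9.52% each). Over all male loci 14.4% were higher and 17.5% lower. No test was made between the classes. The 2 classes differ in level too: the tested genes with a match had a median control level of 4.38 FPKM in females, and those without 14.6 FPKM, against 5.86 and 8.58 FPKM in males. Median finger numbers of the called genes were 10 for those higher and 11 for those lower in females, and 7 and 10.5 in males.

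The genes of the proteins that KRAB zinc finger proteins work with were examined in both sexes. Of 23 listed partners, 22 were tested in each sex. In females 3 (13.6%) were called higher and 5 (22.7%) lower, near the 17.3% and 21.6% of all loci, with a median log2 fold change of 0.13. Trim28, the corepressor that binds KRAB, rose from 111 and 98.7 FPKM in controls to 254 and 207 FPKM (log2FC 1.13 ± 0.20, adjusted p = 0.00287). Setdb1, the H3K9 methyltransferase it recruits, fell from 226 and 157 FPKM in controls to 61.3 and 41.9 FPKM (log2FC -1.87 ± 0.26, adjusted p = 0.0011). Atf7ip, the stabilizer of SETDB1, and Atrx, a remodeler at heterochromatin, were the other rises (1.18 and 1.60). Atf7ip2, a paralog of Atf7ip expressed in germ cells, fell from 109.8 and 89.4 FPKM in controls to 29.3 and 27.1 FPKM (log2FC -1.78 ± 0.18, adjusted p = 0.00032). The HUSH genes Mphosph8 (-1.13), Fam208a (-1.01) and Pphln1 (-1.05) were the remaining falls.

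In males 3 partners (13.6%, beside 14.4% of all loci) were called higher and none lower by limma, beside 17.5% of all loci lower. The median was 0.36, and 4 partners were lower at an unadjusted limma p under 0.05. Of these 4, Chd3 (adjusted p = 0.0145) and Chd4 (0.0293) missed the size threshold alone. Cbx1, which encodes HP1β, rose from 26.2 and 43.03 FPKM in controls to 87.3 and 130.3 FPKM (log2FC 1.64 ± 0.32, adjusted p = 0.0139), Uhrf1, a cofactor of maintenance methylation, from 26.9 and 20.2 FPKM in controls to 67.9 and 56.8 FPKM (log2FC 1.38 ± 0.21, adjusted p = 0.00722), and Hdac1 from 61.02 and 56.9 FPKM in controls to 135 and 121 FPKM (log2FC 1.105 ± 0.17, adjusted p = 0.00716). Trim28 and Setdb1 were at 204 and 162 FPKM in controls against 296 and 237 FPKM in Snf5 CKO (log2FC 0.54 ± 0.24, adjusted p = 0.118) and at 79.03 and 42.5 FPKM in controls against 60.5 and 35.5 FPKM in Snf5 CKO (log2FC -0.32 ± 0.40, adjusted p = 0.546). Setdb1 control libraries differed widely in males.

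Other zinc finger genes are given for comparison. Of 173 tested genes named Zfp1 to Zfp599 in females, 24 (13.9%) were lower and 17 (9.83%) higher, with a median log2 fold change of -0.15. In males 18 (10.5%) of 171 were lower and 14 (8.19%) higher, with a median of -0.19. Zscan and Zkscan genes, whose proteins carry a SCAN domain, had 9 of 19 lower and 1 higher in females, with a median of -0.93, and 4 of 21 lower and 2 higher in males. These shares stand beside the 15.6% and 9.02% in females and the 15.4% and 4.07% in males given for Zfp600 to Zfp999, with no test between the sets.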

How the data were processed

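RNA-Seq of Oct4-EGFP-sorted germ cells gave 8 libraries in 4 groups of 2, assigned from the labels and column names. The authors synthesized and amplified cDNA with a SMART-Seq kit. They aligned the read pairs to UCSC mm10 by Tophat and estimated expression by Cufflinks (Cuffdiff by the labels), in 1 run per sex. Their methods name more than 1 sequencing platform and read length and do not assign them to libraries. The deposited values are FPKM per locus and library. The annotation version and the scaling for library size are not given in the sources used here. The tables hold no counts, so depth is unknown and no counting interval is given; their columns of confidence bounds were not used.

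Each sex was fitted by lmFit and trended eBayes of limma 3.58.1 (R 4.3.3) on log2(FPKM + 1), for named loci with a mean of at least 1 FPKM (11520 in females, 12269 in males), Benjamini-Hochberg over all of them. Each locus was tested once, also where it carries several gene names. Calls needed an adjusted p under 0.05 and a log2 fold change of 1 or more in size. Genes were named by rule: per sex the 10 largest called rises and falls with no overlap of groups, listed members with documented roles, the extremes of each chromosomal run, the 5 most abundant members, and members called in both sexes. Other called members are listed without values. The members and lists were chosen with earlier results of these data known.

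Male column names call the replicate numbers experiments, and the labels name raw files of number 1 and 2 in different styles, so a number was taken to mark a shared batch; deviations of same-numbered libraries had a correlation across loci of 0.50 in females and 0.61 in males. Fingers (C, 2 to 4 residues, C, 12 residues, H, 3 to 5 residues, H) and a KRAB box pattern were searched in the longest reading frame of GENCODE M21 transcripts (GRCm38). Locus starts were raised by 1 to count from 1. Tried as alternatives were a filter at a mean of 5 FPKM or none, a pseudocount of 0.1, rescaling to a common sum, median-of-ratios rescaling, eBayes without trend, linear FPKM, the replicate block, loci with status OK, no merged loci, and each library left out. Figures used matplotlib.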

Additional observations from a re-analysis of the deposited data

Results flagged for a closer look

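For 13 of the genes named above, both Snf5 CKO libraries lay above both controls in 1 sex and below both in the other; 28 of the 118 genes tested in both sexes (23.7%) did so, beside 20.7% of all gene names tested in both. The difference between the sexes was not tested, because the tables were made separately. Called in opposite directions were Zfp672 (log2 fold change -2.39 in females and 1.47 in males), Zfp800 (-1.26 and 1.06) and Zfp825 (1.20 and -1.30). The male calls of these 3 were also lost under other processing with all libraries kept, that of Zfp672 under 5 alternatives, and the female call of Zfp825 was lost on linear FPKM.

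Genes called in 1 sex and on the other side in the other were Zfp617 (-1.51 in females and 0.54 in males), Zfp715 (-1.12 and 0.75), Zfp799 (1.504 and -0.79), Zfp870 (1.21 and -0.36), Zfp677 (0.64 and -1.32), Zfp773 (0.99 and -1.24) and Zfp746 (-0.58 and 1.53). Called in neither sex were Zfp692 (-0.69 and 0.50), Zfp706 (-0.37 and 0.82) and Zfp952 (0.71 and -0.61).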

How the results depend on the processing

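Depth is unknown, and 2 libraries a group limit every value. Counts of called zinc finger genes and their medians moved as follows. With a pseudocount of 0.1, 29 female genes were lower and the female median was -0.38. Without the filter on low values the medians were -0.16 in females and -0.0499 in males. With a mean of at least 5 FPKM, 4 female genes were higher (median -0.55), and 3 male genes were higher and 9 lower; fewer genes were tested. Rescaling to a common sum gave 3 higher male genes and a male median of -0.26. Median-of-ratios rescaling gave 12 higher (9.84%) and 13 lower (10.7%) female genes, beside 19.9% and 18.1% of all loci. In males it gave 6 higher (4.88%) and 15 lower (12.2%), beside 17.2% and 14.6%. The same rescaling gave a female median of -0.20 and turned the male median to 0.0349. The fit on linear FPKM gave 3 higher male genes. Without merged loci the medians were -0.30 and -0.13. The cause of the other moves was not tested. With the replicate number as a block, 11 female genes were higher and 19 lower, and 6 male genes were higher and 19 lower; of the named genes it changed the call of Zfp704 in males alone. Leaving out 1 library at a time gave 11 to 13 higher and 17 to 26 lower female genes (median -0.31 to -0.26), and 3 to 6 higher and 16 to 19 lower male genes (median -0.11 to -0.10). Of the called named genes, 19 of 25 in females and 13 of 20 in males stayed past both thresholds under every alternative that could be run. Gaps of 0.5 and 2 Mb gave 9 and 10 runs, against 10.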
